A study of Rattus norvegicus with 9 samples.

Results

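The genes described are 7 of the 35843 in the deposited table, picked by name as the natriuretic peptides and the classical fetal gene set of the heart: Nppa, Nppb, Myh6, Myh7, Acta1, Actc1 and Ankrd1. Each name occurred in 1 row, and all 7 genes were read in all 9 rats. RNA-seq was performed on left ventricles of SD rats at day 28, with 3 rats in each of 3 groups. Group MI had a ligated left anterior descending coronary artery and group Sham the operation without it, whereas the rats of MI + DAPA (1st d), called group DAPA from here on, had the ligation and daily dapagliflozin (DAPA), a sodium-glucose cotransporter 2 inhibitor, by gavage from the first day. The study's text gives the source of this RNA as left ventricle in one place and as infarct myocardium in another, and the labels give only heart. For its molecular work in general it names mainly the border of the infarct, with scar cut away, and the matching region in group Sham, without saying whether these libraries were made so. The shares of muscle and other cells in each sample are unknown, so that fewer cardiomyocytes and less RNA per cardiomyocyte cannot be told apart. Group MI serves in 2 of the 3 comparisons below and so do group Sham and group DAPA, so that the comparisons are not independent of each other.

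Atrial and B-type natriuretic peptide are hormones of the cardiac muscle cell that lower blood volume and pressure by way of guanylyl cyclase receptors. In the fetal ventricle both are made together with the slow myosin heavy chain and skeletal alpha-actin, and after birth the rodent ventricle turns these genes down and relies on the fast myosin heavy chain. Stretch, overload and infarction are known to turn the fetal set on again in surviving muscle, and the set is widely used as a readout of that state.

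The sequences upstream of 4 of the genes are shown because these genes rose in at least 1 comparison and RefSeq gives a promoter window for them that lies at the edge of the annotated gene. They were read from RefSeq on build GRCr8 as the bases before the annotated start, written 5′ to 3′ on the strand of the gene. For Nppb the last bases of the window lie inside the annotated gene and were left off. Capitals mark matches, on either strand, to CATTCC (the MCAT element of TEAD factors), the CArG box of serum response factor, GATA, and the TATA box letters TATAAA.
Nppa (chr5:163711934-163712183, + strand): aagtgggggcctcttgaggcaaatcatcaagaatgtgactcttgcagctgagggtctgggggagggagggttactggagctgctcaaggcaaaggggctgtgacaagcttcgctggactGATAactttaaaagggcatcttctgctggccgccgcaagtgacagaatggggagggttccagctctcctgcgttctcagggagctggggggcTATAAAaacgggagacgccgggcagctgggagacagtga
Nppb (chr5:163699758-163699954, + strand): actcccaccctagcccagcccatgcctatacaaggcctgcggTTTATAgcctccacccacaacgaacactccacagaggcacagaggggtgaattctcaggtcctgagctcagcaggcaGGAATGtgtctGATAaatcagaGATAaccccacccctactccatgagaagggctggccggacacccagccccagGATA
Acta1 (chr19:68784195-68784444, - strand): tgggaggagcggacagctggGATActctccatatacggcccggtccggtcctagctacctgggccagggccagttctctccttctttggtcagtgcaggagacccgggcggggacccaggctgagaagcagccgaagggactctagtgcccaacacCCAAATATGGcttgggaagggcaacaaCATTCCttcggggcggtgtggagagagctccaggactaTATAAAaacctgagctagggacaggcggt
Actc1 (chr3:121271828-121272077, - strand): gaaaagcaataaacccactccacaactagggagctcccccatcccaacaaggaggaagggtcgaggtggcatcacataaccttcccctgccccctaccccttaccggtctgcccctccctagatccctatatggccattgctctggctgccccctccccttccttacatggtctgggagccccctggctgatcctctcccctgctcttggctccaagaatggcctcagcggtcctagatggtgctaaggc
Counted back from the start of transcription that each RefSeq window uses, the windows of Nppa and Acta1 held TATAAA from -39 and from -29, and that of Nppb held it on the other strand from -208. CATTCC was matched from -131 in Nppb, where it reads on the other strand, and from -67 in Acta1. A CArG box was matched from -94 in Acta1 alone among the 4 windows. GATA was matched 1 time in Nppa, 3 times in Nppb and 1 time in Acta1. No match to these 4 motifs was found in the window of Actc1. Among 33469 RefSeq promoter windows of 250 bases, 12.1% held CATTCC, 55.9% held GATA, 1.497% held a CArG box and 12.9% held TATAAA. The E box CANNTG, which takes in CACGTG, was matched 3 times in Nppa and 1 time in Acta1, against a share of 65.5% of all windows, while CACGTG, in 5.59% of all windows, was matched in 0 of the 4, and so was the AP-1 motif TGACTCA, in 4.05%. A match describes these letters only and is not a measured binding site.

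The 2 myosin heavy chain genes lie next to each other in RefSeq, as do the 2 natriuretic peptide genes. Each myosin gene, and the related Myh7b, also holds a microRNA, whose mature sequences are shown because they share most of their seed, bases 2 to 8, in capitals.
rno-miR-208a-3p (chr15:32395568-32395585, - strand): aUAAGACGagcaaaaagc
rno-miR-208b-3p (chr15:32421648-32421665, - strand): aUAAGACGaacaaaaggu
rno-miR-499-5p (chr3:164570616-164570636, + strand): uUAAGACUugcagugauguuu
The first lies inside Myh6, the second inside Myh7 and the third inside Myh7b. The seeds of the first and second are the same 7 bases, and that of the third differs in the last. Mature microRNAs were not measured in these poly-A selected libraries.

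Depth did not limit the 7 genes. From the steps of the FPKM values (fragments scaled by gene length and library size), between 13597239 and 17210909 reads were recovered per rat. The fewest reads on any of the 7 genes were 349, for Nppb in Sham replicate 3, and the most were 123371, for Nppa in DAPA replicate 2. The mitochondrial genome took 61.1% to 66.9% of the reads in group Sham, against 7.07% to 19.1% in group MI and 17.5% to 32.0% in the DAPA-treated rats. The deposited values carry a scaling between libraries, which sets the median gene to about the same level in each group. MI replicate 2 stood apart. Its 12 cardiomyocyte markers summed to 1790.3 FPKM, against 4965 and 8692 in the other rats of group MI and 6662 to 14736 in the rats of the other groups. Its lymphocyte markers (5 measured) summed to 94.2 FPKM, against at most 21.6 elsewhere, and its fibroblast and macrophage markers were the highest of the 9 rats, at 8443 and 2237 FPKM. The differences of the 7 genes from group MI are given with and without it.

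Between group MI and group Sham, 4 of the 7 genes were higher (Nppa, Nppb, Acta1 and Myh7), 1 was lower (Myh6) and 2 (Actc1 and Ankrd1) did not pass the test. Calls were made at a Benjamini-Hochberg adjusted p under 0.05 from limma, fitted on log2(FPKM + 1) over all 13485 genes tested, of which 39.0% were called, 19.5% in each direction. The median log2 fold change was 1.68 over the 7 genes and -0.01 over all genes tested. In 5 of the 7 genes the groups did not overlap, where 54.6% of all genes tested had no overlap.

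**Figure D1:**
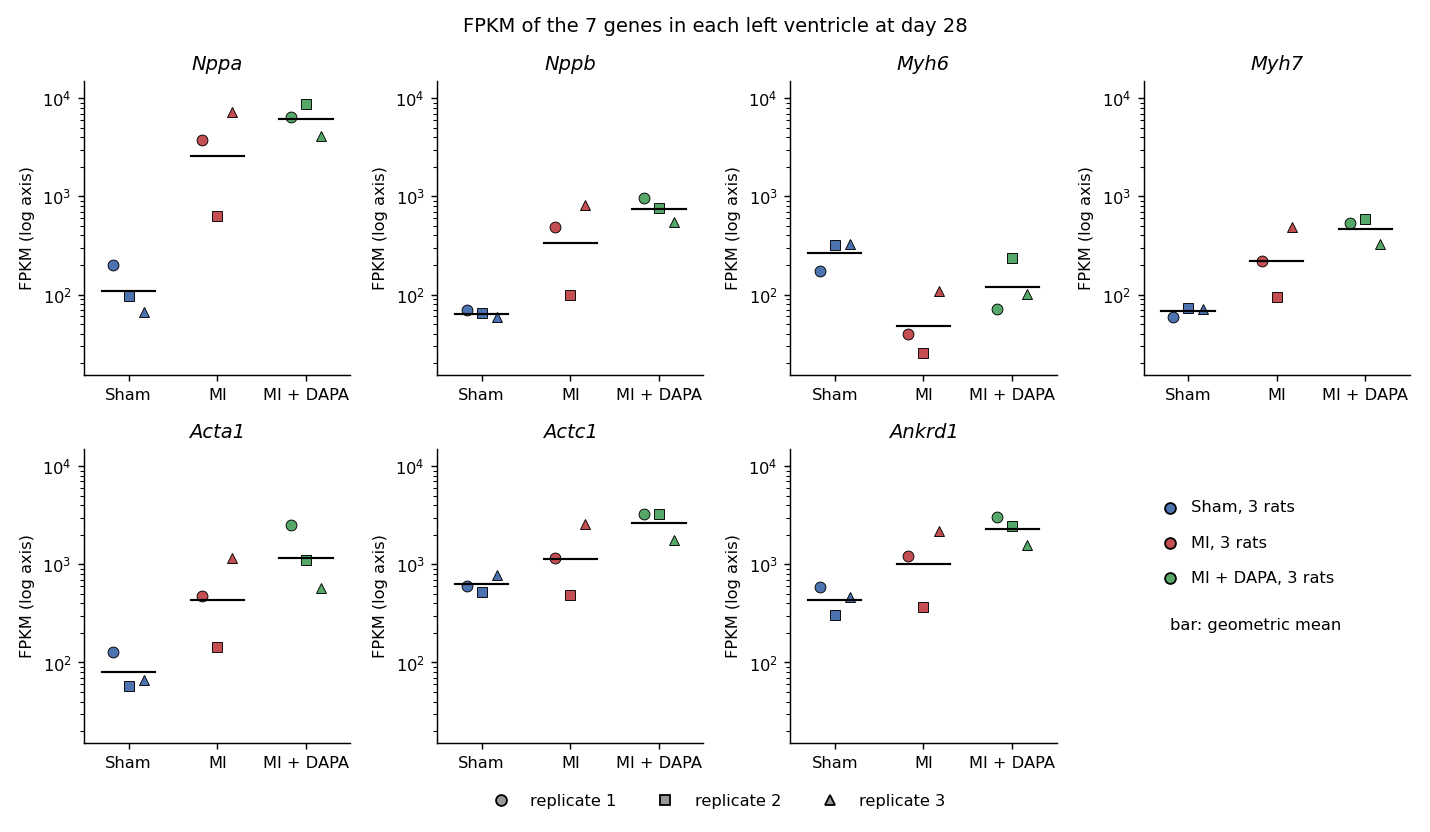
FPKM (log axis) of each of the 7 genes in every rat, with 3 rats of group Sham, group MI and group DAPA, marker shapes for the replicate numbers and bars for geometric means. MI replicate 2 (square) was the lowest and MI replicate 3 (triangle) the highest rat of group MI for all 7 genes.

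Nppa, which encodes atrial natriuretic peptide, had 199.7, 96.5 and 65.9 FPKM in the 3 rats of group Sham. In group MI it had 3741, 626 and 7169 FPKM. Every rat of group MI lay above every rat of group Sham, although the rats of group MI themselves spanned an 11.4-fold range. The log2 fold change was 4.55 ± 0.87 (SE, n = 3 per group; adjusted p = 0.0074 by limma with Benjamini-Hochberg adjustment), a 23.4-fold difference and the largest of the 7 genes. Atrial muscle makes much of this peptide, and the 8 atrial markers summed to 23.6 to 50.6 FPKM in group Sham and 88.4 to 195 FPKM in group MI. The atrial genes Sln and Bmp10 stayed at or below 3.85 and 0.288 FPKM in these 6 rats, whereas Dkk3 and Nr2f2 were called higher, by 3.52 and 1.57 on the log2 scale (limma adjusted p = 0.0013 and 0.00102). The mean of Dkk3 was 4.93 FPKM in group Sham and 74.5 FPKM in group MI, and that of Nr2f2 was 10.4 and 32.9 FPKM. Of the 6 atrial markers tested 2 were called (33.3%, against 39.0% of all genes). Myl4 and Myl7 differed by 2.02 and 0.54 without passing the test, and the part of the atrial markers in the result was not tested.

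Nppb, which encodes B-type natriuretic peptide, had 69.1, 64.3 and 59.0 FPKM in group Sham, the narrowest spread of any of the 7 genes in any group. The rats of group MI had 484, 99.4 and 811 FPKM. The groups did not overlap, and MI replicate 2 lay closest to group Sham. The log2 fold change was 2.39 ± 0.69 (SE, n = 3 per group; limma adjusted p = 0.031).

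Myh7, the slow beta-myosin heavy chain of the fetal rodent ventricle, had 58.9, 72.8 and 71.3 FPKM in group Sham. It had 221, 95.002 and 489 FPKM in group MI. No rat of group MI fell within the range of group Sham, and the log2 fold change was 1.68 ± 0.53 (SE, n = 3 per group; limma adjusted p = 0.041).

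Myh6, the fast alpha-myosin heavy chain of the adult rodent ventricle, had 174, 321 and 329 FPKM in group Sham. It had 39.6, 25.2 and 109 FPKM in group MI. It was the only one of the 7 genes that fell, with all rats of group MI below all rats of group Sham. The log2 fold change was -2.43 ± 0.52 (SE, n = 3 per group; limma adjusted p = 0.011), a 5.40-fold lower level.

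Acta1, the skeletal alpha-actin that accompanies cardiac actin in the fetal heart, had 129, 57.6 and 66.9 FPKM in group Sham. It had 479.8, 143 and 1160.4 FPKM in group MI. MI replicate 2 lay just above Sham replicate 1, and the other rats of group MI lay well above it. The log2 fold change was 2.43 ± 0.72 (SE, n = 3 per group; limma adjusted p = 0.033).

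Actc1, the cardiac alpha-actin of adult muscle, had 598, 516 and 785 FPKM in group Sham. It had 1155, 492 and 2559 FPKM in group MI. MI replicate 2 was below all 3 rats of group Sham, so the groups overlapped, and the log2 fold change was 0.86 ± 0.55 (SE, n = 3 per group; limma adjusted p = 0.25). Ankrd1, a stress-responsive ankyrin repeat protein of the sarcomere and nucleus also called CARP, had 592, 302 and 464 FPKM in group Sham. In group MI it had 1228, 368 and 2206 FPKM, with MI replicate 2 inside the range of group Sham. The log2 fold change was 1.19 ± 0.62 (SE, n = 3 per group, limma adjusted p = 0.17).

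Without MI replicate 2, all 7 genes were called. In that fit the log2 fold change was 5.56 for Nppa, 3.27 for Nppb, 3.22 for Acta1, 2.27 for Myh7 and -1.98 for Myh6, and it was 1.46 for Actc1 and 1.91 for Ankrd1 (limma adjusted p = 0.029 and 0.013 for the last of these). The calls of Nppa and Myh6 held with any 1 rat left out, while those of Nppb and Myh7 were lost in 5 of the 6 fits with 1 rat fewer and that of Acta1 in 4 of the 6, at limma adjusted p of up to 0.104.

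Between group DAPA and group MI, 0 of the 7 genes passed the limma test, and 0 of the 13251 genes tested (0%) did so. At an unadjusted limma p under 0.05 there were 0 of the 7 and 8.49% of all genes. All 7 log2 fold changes were positive, between 1.11 for Myh7 and 1.44 for Acta1, with a median of 1.23 against -0.02 over all genes tested. The groups overlapped in all 7 genes, where 13.8% of all genes tested had no overlap.

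The DAPA-treated rats had 6493, 8659.6 and 4154 FPKM of Nppa. They had 965, 769.9 and 543 FPKM of Nppb. Both peptides thus spanned 2.08-fold and 1.78-fold in this group, against 11.4-fold and 8.16-fold in group MI. Without MI replicate 2 the spans in group MI were 1.92-fold and 1.68-fold, close to those of the treated rats. MI replicate 3 lay inside the range of the treated rats. The log2 fold changes were 1.27 for Nppa (95% interval -0.87 to 3.40) and 1.12 for Nppb (-0.63 to 2.87), at limma adjusted p of 0.63 and 0.62.

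Myh7 had 533, 591 and 329 FPKM and Myh6 had 72.03, 237 and 101 FPKM in the DAPA-treated rats. Among the DAPA-treated rats, replicate 2 had the most of both myosins. The differences from group MI were 1.11 for Myh7 (95% interval -0.27 to 2.48) and 1.31 for Myh6 (-0.17 to 2.78) on the log2 scale, at limma adjusted p of 0.56 for each. Both myosins, which had moved in opposite directions in group MI, were thus at higher mean levels in the treated rats without passing the test.

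Acta1 had 2509, 1109 and 574 FPKM in the DAPA-treated rats. Actc1 had 3238, 3296 and 1756 FPKM, and Ankrd1 had 3008, 2474 and 1574 FPKM. For all 3 genes, replicate 3 was the lowest of the treated rats and MI replicate 3 lay inside their range. The log2 differences from group MI were 1.44 (95% interval -0.55 to 3.43), 1.23 (-0.25 to 2.71) and 1.18 (-0.39 to 2.76) in this order.

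The size of these differences depended on which rats of group MI were compared. Without MI replicate 2 the log2 difference was 0.25 for Nppa, 0.24 for Nppb, 0.51 for Myh7, 0.86 for Myh6, 0.65 for Acta1, 0.63 for Actc1 and 0.46 for Ankrd1. Without MI replicate 3 it was 2.01 for Nppa, 1.75 for Nppb, 1.69 for Myh7, 1.89 for Myh6, 2.15 for Acta1, 1.82 for Actc1 and 1.75 for Ankrd1. In that fit 6 of the 7 genes had an unadjusted limma p under 0.05, where 11.7% of all genes had one, and 0 passed the test (limma adjusted p between 0.38 and 0.43). The 12 cardiomyocyte markers moved with the 7 genes, with positive differences in 12 of 12 at a median log2 fold change of 1.26, and the values relative to them are given further on.

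Between group DAPA and group Sham, 6 of the 7 genes were higher, where limma called 28.6% of the 13359 genes tested, 14.5% of them higher and 14.1% lower. The same 6 genes had no overlap between the groups, against 46.5% of all genes tested. The log2 fold change was 5.81 ± 0.44 for Nppa, 3.51 ± 0.23 for Nppb, 3.86 ± 0.54 for Acta1, 2.78 ± 0.25 for Myh7, 2.38 ± 0.35 for Ankrd1 and 2.09 ± 0.32 for Actc1 (SE, n = 3 per group). The limma adjusted p was between 0.0014 and 0.0049, and the 6 calls held with any 1 rat left out. Of the 6 atrial markers tested here, 4 were called higher (66.7%, against 14.5% of all genes) and 2 were not called. Myl4 and Myl7 were among the called ones, at 3.65 and 2.33 on the log2 scale (limma adjusted p = 0.017 and 0.0038). The 8 atrial markers summed to 150 to 212 FPKM in group DAPA against 23.6 to 50.6 FPKM in group Sham, and their part in the result was not tested. Myh6 was at a lower mean, by -1.13 ± 0.45 on the log2 scale, but DAPA replicate 2 lay within the range of group Sham and the gene did not pass the test (limma adjusted p = 0.10). Without DAPA replicate 2 the log2 fold change of Myh6 was -1.62, and the gene was called (limma adjusted p = 0.018).

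**Figure D2:**
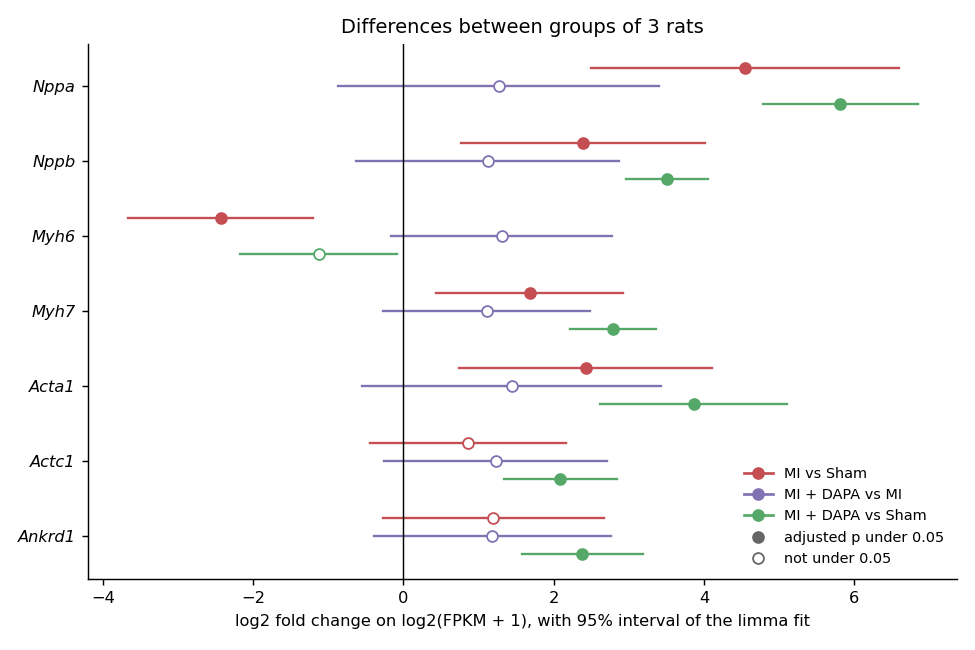
Log2 fold changes on log2(FPKM + 1) of the 7 genes with the 95% interval of the limma fit, in 3 comparisons of 3 rats with 3, with filled points for adjusted p under 0.05. The intervals of MI + DAPA vs MI all include 0, and Myh6 is the only gene left of 0 in the comparisons with group Sham.

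The scaling of the libraries changed sizes and some calls, and among the 7 genes it turned the direction of Myh6 alone. When each library was scaled to the same sum over all genes, the mitochondrial genome included, the median of all genes shifted by 1.31 in MI vs. Sham and by 0.99 in DAPA vs. Sham on the log2 scale. Under that scaling Myh6 differed by -0.89 in MI vs. Sham (limma adjusted p = 0.090) and by 0.05 in DAPA vs. Sham, which turns its direction. Relative to the median gene it still stood at -2.21 and -0.94. Actc1 and Ankrd1 were then called in MI vs. Sham, at 2.42 and 2.75, or 1.10 and 1.44 above the median gene. With the mitochondrial genome left out of the scaling, no gene of the 7 changed its direction or its call in any comparison.

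Ratios within a library do not depend on such scaling. The ratio of Myh7 to Myh6, an index of the isoform shift between the slow and the fast myosin, was 0.340, 0.227 and 0.216 in group Sham. It was 5.58, 3.77 and 4.48 in group MI and 7.40, 2.49 and 3.25 in group DAPA. Myh7 thus made up 20.5% ± 4.17 of the 2 myosins in group Sham, against 81.9% ± 2.90 in group MI and 78.6% ± 8.57 in the DAPA-treated rats (SD, n = 3 each). All 6 infarcted rats lay above 1 and all 3 rats of group Sham below it.

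The log2 ratio differed by 4.11 between group MI and group Sham, a 17.3-fold difference, with a pooled SD of 0.33. Between group DAPA and group Sham it differed by 3.91, or 15.04-fold. In either comparison the exact permutation test (two-sided) gave p = 0.1, which is as low as it can go with 3 rats per group, and 0.15 after Benjamini-Hochberg adjustment over the 3 comparisons. Between group DAPA and group MI the groups overlapped, and the difference of -0.20 was smaller than the pooled SD of 0.61 (exact permutation p = 0.7).

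The ratio of Acta1 to Actc1 was 0.216, 0.112 and 0.0853 in group Sham, against 0.415, 0.291 and 0.453 in group MI and 0.775, 0.336 and 0.327 under DAPA. The infarcted rats lay above group Sham in both groups, by 1.57 and 1.78 on the log2 scale (exact permutation p = 0.1 each, 0.15 adjusted over 3 comparisons). The treated and untreated infarcted rats overlapped and differed by 0.21 (exact permutation p = 0.8). The actins and the myosins are each near-identical in sequence, and reads that match both members of a pair could have been split between them in the authors' counting.

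The ratio of Nppa to Nppb was 2.89, 1.4999 and 1.12 in group Sham. In group MI it was 7.73, 6.30 and 8.84, and in group DAPA it was 6.73, 11.2 and 7.65. Nppa made up 62.4% ± 10.9 of the 2 peptides in group Sham, against 88.2% ± 1.79 in group MI and 89.1% ± 2.46 in the DAPA-treated rats (SD, n = 3 each). This ratio was added after the values had been seen and was not tested.

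**Figure D3:**
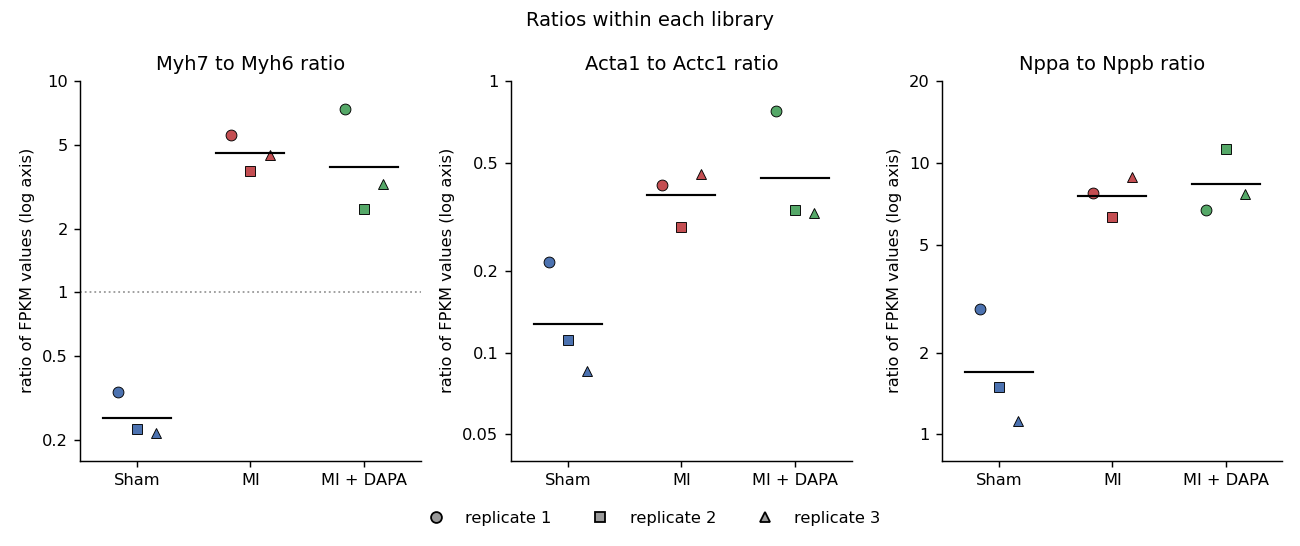
Ratios of FPKM values (log axes) of Myh7 to Myh6, Acta1 to Actc1 and Nppa to Nppb in each of the 9 rats, with bars for geometric means. The 3 rats of group Sham lie below all 6 infarcted rats in each ratio, and the treated and untreated infarcted rats overlap.

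Each gene was then set against the 12 cardiomyocyte markers of the same library, as log2(FPKM + 1) minus the mean of the markers. That mean was 7.15 to 7.69 in group Sham, against 7.10, 5.78 and 7.97 in group MI and 7.63 to 8.53 under DAPA. On this scale the groups did not overlap for any of the 7 genes in MI vs. Sham. The share of all genes without overlap was not computed on this scale, and it was 54.6% on the FPKM scale. The log2 differences were 5.06 for Nppa, 2.94 for Acta1, 2.90 for Nppb, 2.19 for Myh7, 1.71 for Ankrd1, 1.38 for Actc1 and -1.92 for Myh6 (exact permutation p = 0.1 each, 0.15 adjusted over the 7 genes and 3 comparisons). MI replicate 2 thus lay on the side of the other rats of group MI in all 7 genes.

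Relative to the markers, Myh7 was at 0.70, 0.80 and 0.97 in group MI and at 0.75, 0.68 and 0.73 in group DAPA, against -1.24, -1.35 and -1.51 in group Sham. Its SD of 0.13 in group MI was the smallest of the 7 genes on this scale. Nppa was at 4.77, 3.51 and 4.84 in group MI and at 4.35, 4.55 and 4.39 in the treated rats, with MI replicate 2 the lowest of the infarcted rats. Myh6 was at -1.75, -1.07 and -1.18 in group MI and at -2.12, -0.63 and -0.96 in the treated rats, against 0.30, 0.77 and 0.68 in group Sham.

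Between the treated and the untreated infarcted rats, all 7 differences relative to the markers lay between -0.10 (Myh7) and 0.23 (Acta1), and the groups overlapped in every gene. Without MI replicate 2 they lay between -0.39 (Nppb) and 0.23 (Myh6). The pooled SD between rats was between 0.10 for Myh7 and 0.65 for Acta1, and the exact permutation p was between 0.3 and 1. A difference smaller than that spread could not be seen with 3 rats per group. Between group DAPA and group Sham, the differences were 5.12 for Nppa, 3.17 for Acta1, 2.82 for Nppb and 2.09 for Myh7. They were 1.69 for Ankrd1, 1.40 for Actc1 and -1.82 for Myh6. None of the 7 genes had overlap (exact permutation p = 0.1 each), where 46.5% of all genes had none on the FPKM scale. The markers themselves moved too in DAPA vs. Sham, where limma called 7 of 12 higher (58.3%, against 14.5% of all genes). In MI vs. Sham it called 2 of 12 lower (16.7%), near the 19.5% of all genes called lower.

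**Figure D4:**
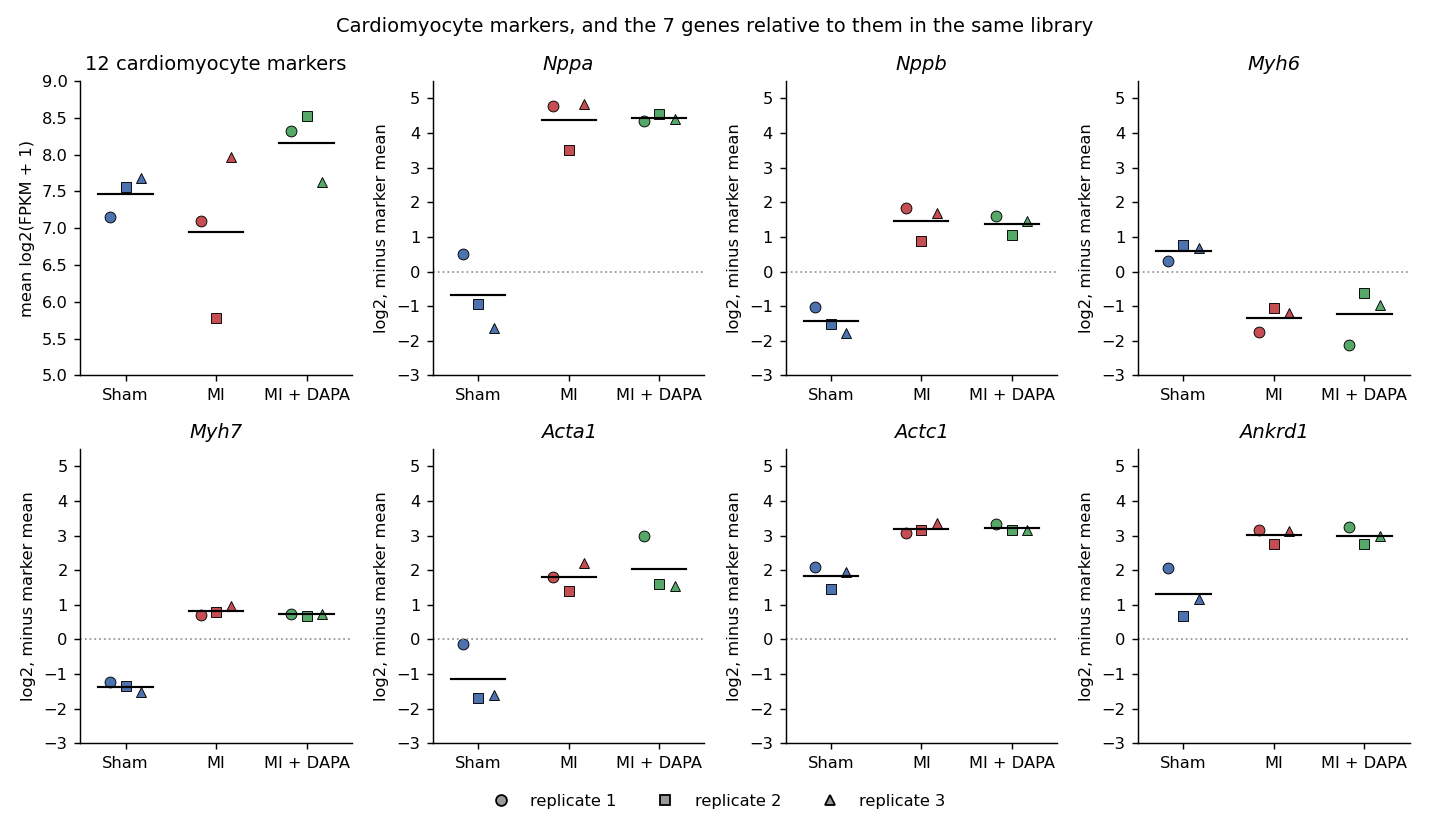
Mean log2(FPKM + 1) of 12 cardiomyocyte markers in each rat (first panel), and each of the 7 genes as log2(FPKM + 1) minus that mean in the same library, with bars for means. Group MI and group DAPA overlap in every gene, and both stand apart from group Sham.

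The order of the levels changed with infarction. In group Sham the mean level per length fell from Actc1 (633 FPKM) over Ankrd1 (452 FPKM), Myh6 (274 FPKM), Nppa (121 FPKM), Acta1 (84.6 FPKM) and Myh7 (67.6 FPKM) to Nppb (64.1 FPKM), and every neighbouring pair overlapped between rats. In group MI Nppa came first (3845 FPKM) and Myh6 last (58.0 FPKM), again with overlap between all neighbours. In group DAPA Nppa stood clear above Actc1 (6436 against 2764 FPKM) and Myh7 clear above Myh6 (484 against 137 FPKM), and the other neighbours overlapped.

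Over the 9 rats, Nppa, Nppb, Myh7, Acta1, Actc1 and Ankrd1 went up and down together, with Pearson's r of log2(FPKM + 1) between 0.86 and 0.98 for each pair. Myh6 had an r between -0.44 and -0.01 with the other members. These correlations describe the 9 libraries, which differ in group, depth and cell make-up, and were not tested. Among 14157 genes searched, those with the pattern most like Nppb were Hspb7, a small heat shock protein of heart muscle (r = 0.995), Grb14, an adaptor of the insulin receptor (r = 0.993), and Xirp2, an actin-binding protein of the intercalated disc (r = 0.988), beside an unnamed locus (r = 0.995). The pattern of Nppa was most like those of Ddah1 (r = 0.982), Sqstm1 (r = 0.979) and Nppb (r = 0.976), and the same unnamed locus came above them with 0.986. Myh7 was most like Vdac1 (r = 0.994), Cap2, Cpe and Pabpc4, and Acta1 most like RGD1307554 (r = 0.989), Hspb7, Des and Xirp2. Actc1 was most like Srl (r = 0.991), Tmem182, Ndufa10 and Ndufs1, the last of these being subunits of respiratory complex I, and Ankrd1 most like Tmem182 (r = 0.986), Tceal7, Tle5 and Grb14. Myh6 was most like Gnb3 (r = 0.968), Rhobtb2, Mrpl14 and Atp5me.

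Of 10 tested genes of the natriuretic peptide system, 4 were lower and 1 was higher in MI vs. Sham by limma, which is 5 of 10 against 39.0% of all genes, with a median log2 fold change of -0.61. Of the 5 endothelial markers tested, 4 were also called lower (80%, against 19.5% of all genes). The median log2 fold change of the 5 was -1.14 (Kdr at -1.91 and Cdh5 at -1.42), and their part in these results was not tested. Npr1, the guanylyl cyclase receptor of both peptides, had 44.1, 49.6 and 47.8 FPKM in group Sham and 17.4, 15.9 and 13.9 FPKM in group MI, without overlap (log2 fold change -1.53, limma adjusted p = 0.00103). Npr2, the receptor of C-type natriuretic peptide, fell by 1.09 on the log2 scale (limma adjusted p = 0.0104). The other lower gene, Pde2a, a phosphodiesterase, fell by 1.11 and is named here because it was called. The same holds for Nes, Cacna1c, Camta2, Tbx20, Hdac4, Gata4, Nfatc3 and Nfatc1 below.

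Pde9a, a phosphodiesterase that degrades cyclic GMP, had 17.4, 11.97 and 20.1 FPKM in group Sham and 1.83, 2.53 and 2.12 FPKM in group MI. It had 5.65, 5.09 and 4.86 FPKM in the treated rats, all above group MI and all below group Sham. The log2 fold change was -2.44 in MI vs. Sham (limma adjusted p = 0.000975) and 0.98 in DAPA vs. MI, where it did not pass the test (limma adjusted p = 0.56). Pcsk6, the protease that activates corin, rose from 9.72 to 14.5 FPKM in group Sham to 24.4 to 36.8 FPKM in group MI (log2 fold change 1.18, limma adjusted p = 0.00632).

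Of 13 tested relatives of the sarcomeric members, 1 was higher and 2 were lower in MI vs. Sham, or 23.1% against 39.0% of all genes. Ankrd23, a relative of Ankrd1, had 5.68, 2.45 and 2.94 FPKM in group Sham and 38.1, 11.9 and 75.9 FPKM in group MI, without overlap (log2 fold change 2.91, limma adjusted p = 0.011). Myh7b, the myosin gene that holds rno-miR-499-5p, fell by 3.10 on the log2 scale (limma adjusted p = 0.00418), and Tnni3, the adult cardiac troponin I, fell by 2.32 (limma adjusted p = 0.016). Myl4, the atrial and fetal essential light chain, had 0.721, 21.9 and 3.29 FPKM in group Sham and 17.2, 8.90 and 61.8 FPKM in group MI, with overlap and without passing the test. Myl2, the ventricular regulatory light chain, differed by 1.59 between treated and untreated infarcted rats (limma adjusted p = 0.56).

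Of 19 tested genes of the wider fetal and hypertrophy programme, 12 were higher and 1 (Nes, an intermediate filament gene) was lower in MI vs. Sham, or 68.4% against 39.0% of all genes, with a median log2 fold change of 0.93. Tgfb2, a transforming growth factor, had 3.30, 2.53 and 3.74 FPKM in group Sham and 13.7, 10.2 and 16.8 FPKM in group MI (log2 fold change 1.79, limma adjusted p = 0.0018). Mdk, the growth factor midkine, rose by 1.99, Cilp, a matrix protein of fibroblasts, by 2.32 and Slc2a1, the basal glucose transporter, by 1.42 on the log2 scale (limma adjusted p between 0.00235 and 0.00573). Several genes of this list are also made by fibroblasts. Of the 10 fibroblast markers, 9 were called higher (90%, against 19.5% of all genes). The 10 markers summed to 4541 to 8443 FPKM in group MI against 1358 to 1767 FPKM in group Sham, and their part in the result was not tested. In the treated rats Mdk had 16.7, 19.1 and 20.1 FPKM against 31.5, 32.9 and 33.4 FPKM in group MI, without overlap and without passing the test (log2 fold change -0.78, limma adjusted p = 0.56). Nmrk2, a nicotinamide riboside kinase of muscle, had 23.5, 20.1 and 7.32 FPKM in the treated rats against 8.17, 0.767 and 5.53 FPKM in group MI (log2 fold change 1.78, limma adjusted p = 0.56).

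Of 13 tested genes of the adult cardiac programme, 5 were lower and 0 were higher in MI vs. Sham, which at 38.5% was close to the 39.0% called among all genes. Only 1 of the 13 had a positive difference, Hcn4, at 1.54 on the log2 scale without passing the test (limma adjusted p = 0.070). At an unadjusted limma p under 0.05 there were 6 (46.2%), against 49.0% of all genes. Ckmt2, the mitochondrial creatine kinase of muscle, had 385, 604 and 609 FPKM in group Sham and 143, 33.3 and 132 FPKM in group MI (log2 fold change -2.59, limma adjusted p = 0.010). Kcnd3, a channel of the transient outward potassium current, fell by 2.06, Slc2a4, the insulin-dependent glucose transporter, by 1.48 and Cacna1c, the L-type calcium channel, by 0.88 on the log2 scale. Atp2a2, the calcium pump of the sarcoplasmic reticulum, had 90.0, 107 and 133 FPKM in group Sham and 104, 66.6 and 150.3 FPKM in group MI, which overlapped (log2 fold change -0.10, limma adjusted p = 0.82). All 12 genes of this list tested in DAPA vs. MI, Hcn4 among them, had positive differences, none of which passed the limma test. An unadjusted limma p under 0.05 was found for 3 of the 12, where 8.49% of all genes had one. MI replicate 2 was the lowest rat of group MI in all 12, and the median log2 difference was 0.99 with it and 0.54 without it. The 12 cardiomyocyte markers, of which Ryr2 is also in this list, had positive differences too, at medians of 1.26 and 0.66. Their part in the result was not tested.

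Of 24 tested transcription regulators known to act on the fetal genes, 7 were higher and 4 were lower in MI vs. Sham, which is 11 of 24 against 39.0% of all genes. Rest, a repressor of fetal cardiac genes in the ventricle, had 0.52, 0.48 and 0.37 FPKM in group Sham and 2.53, 4.31 and 2.44 FPKM in group MI (log2 fold change 1.46, limma adjusted p = 0.00431). Yap1, a partner of TEAD factors, rose by 0.95, while Tead4 fell by 0.90 and Hdac5, a histone deacetylase that restrains MEF2 factors, fell by 0.96 on the log2 scale (limma adjusted p between 0.00515 and 0.00963). Mef2c, a muscle transcription factor, fell by 0.55 (limma adjusted p = 0.018) and Camta2, a transcription activator of the heart, by 0.65. The other higher regulators were Tbx20 at 1.70, Hdac4 at 1.13, Gata4 at 1.09, Nfatc3 at 0.85 and Nfatc1 at 0.75 (limma adjusted p between 0.0114 and 0.0237). None of the 26 regulators tested in DAPA vs. MI passed the limma test, where 0% of all genes did. At an unadjusted limma p under 0.05 there were 0 of the 26, against 8.49% of all genes.

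**Figure D5:**
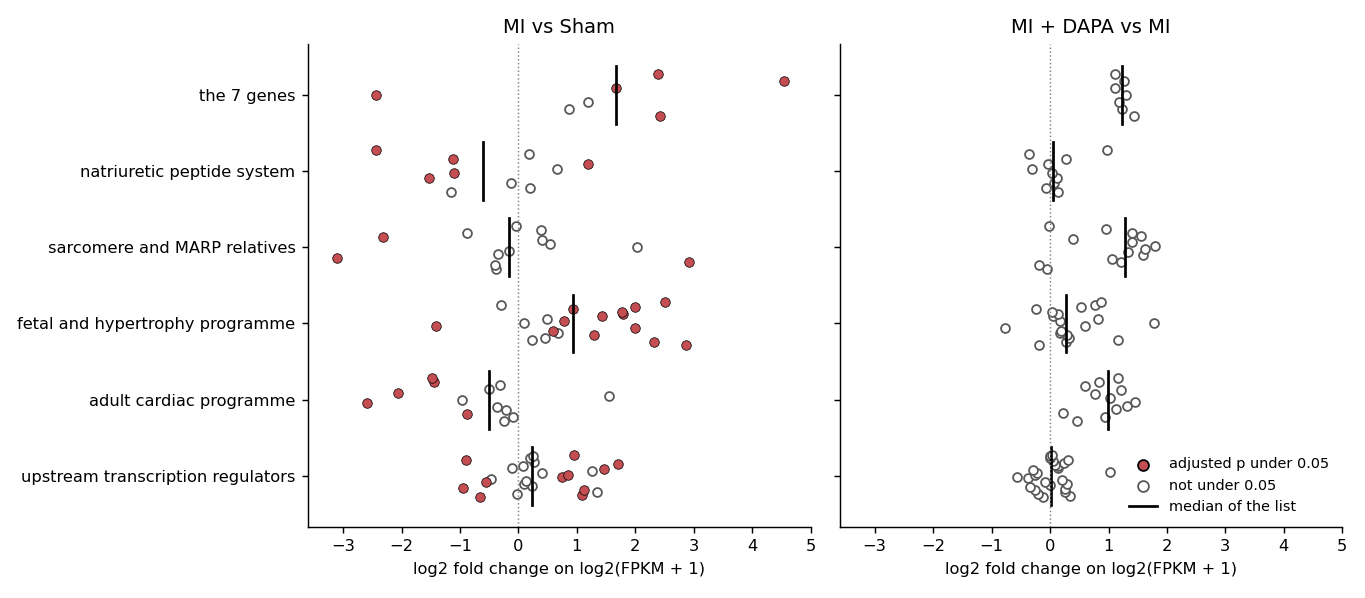
Log2 fold changes on log2(FPKM + 1) of the 7 genes and of the tested genes of 5 lists in MI vs Sham and MI + DAPA vs MI, 1 point per gene, red for adjusted p under 0.05 and a black bar for the median. Among the lists of MI + DAPA vs MI, no point is red, and the medians of the 7 genes (1.23) and of the sarcomere list (1.27) lie furthest right.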

How the data were processed

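RNA of left ventricles from 9 SD rats was read as poly-A selected, paired-end libraries. The table deposited by the authors holds FPKM values in 9 columns, each for a single rat, and 0 columns were left unused. Per the labels' processing notes, HISAT2 2.0.5, StringTie 1.3.3b, featureCounts 1.5.0-p3 and DESeq2 were used, with no role given for any of them. The genome build is not given in the sources used here, and how reads matching several genes were counted is not given either. Group and replicate number were taken from the titles. Nothing in the labels ties replicate numbers across groups, and p-values measure the spread between these rats.

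The deposited values are FPKM, and no count test was run on them or on the recovered reads described below. limma 3.58.1 in R 4.3.3 was fitted on log2(FPKM + 1), a scale that understates changes of low genes, with the 2 groups of a comparison, no covariate and a variance trend. A gene was tested when 3 or more of the rats fitted had an FPKM of 1 or more, and the fold-change limit of the study's own criteria was tried as an alternative. Reads per gene were recovered as whole multiples of the value of 1 read (tolerance 0.03 reads) for 18896 of the 18896 genes above 0 in at least 4 rats. The recovery and the limma test were tested on simulated data. Interval limits are 95% limits of the limma fit. For ratios and values relative to markers, exact permutation tests (two-sided) were run over rats, which cannot give a p below 0.1.

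The 7 genes, the lists and the tests were chosen with earlier results of these data known. Genes named are the 7 and at most 4 per list with the smallest p in MI vs. Sham. At most 2 per list with the smallest p in DAPA vs. MI are named too. For each of the 7, the 4 genes with the highest Pearson's r over the 9 rats are named. Pde2a, Nes, Cacna1c, Camta2, Tbx20, Hdac4, Gata4, Nfatc3, Nfatc1 and Hcn4 were named after their values were seen. A result that this rule would name is not reported here. Of the 14 cardiomyocyte markers listed, 12 are in the table. Some lists share genes and are not independent of each other. Tnnt2, Tnni3, Myl2, Myl3 and Tnnc1 are in both the sarcomere list and these markers. Csrp3 is also in the fetal and hypertrophy list, and Ryr2 is also in the adult cardiac list. Myl4 and Myl7 are in both the sarcomere list and the atrial markers. RefSeq promoter windows on GRCr8 were found for 6 of the 7 genes by symbol, and those of Myh6 and Myh7, which start inside the annotated gene, were not used. Other steps ran in Python 3.11.15 (pandas 2.3.3, numpy 2.4.6) and plots in matplotlib 3.10.9. Alternatives were other scalings, 0.1 as the pseudocount, testing without the low-value filter, all 9 rats in 1 fit and a replicate block. The study's cut-offs applied to limma and each rat left out in turn were tried too. Leaving rats of group MI out of the gene lists and of the spans was added after the data were seen.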

Additional observations from a re-analysis of the deposited data

How the results depend on the processing

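Nppa in both comparisons with group Sham kept its call under every alternative, as did the other 5 higher genes in DAPA vs. Sham. The number of the 7 genes called in MI vs. Sham was 5, and it was 2 without a filter on low values, where more genes were tested, and 2 to 7 with 1 rat left out. Scaled to the same sum over all genes, 10651 genes were higher and 338 lower in MI vs. Sham and 8431 higher and 265 lower in DAPA vs. Sham, and Myh6 turned to 0.055 in the latter. The median log2 fold change of all genes was 1.31 and 0.99 in these comparisons under that scaling. It was -0.04 and -0.08 without the mitochondrial genome in the sum. Why the mitochondrial share of reads differed between groups was not tested. The study's cut-offs (a log2 fold change beyond 1 either way at an unadjusted p under 0.05) were applied to limma, not to its DESeq2 test. By these, 1634 genes were higher and 1390 lower in MI vs. Sham. There were 126 and 147 in DAPA vs. MI and 1274 and 1090 in DAPA vs. Sham. These numbers are thus not the study's own. With 1 rat left out, 1782 to 2378 genes were higher and 1737 to 2378 lower in MI vs. Sham, 0 higher and 0 to 2 lower in DAPA vs. MI and 959 to 1641 higher and 949 to 1565 lower in DAPA vs. Sham. Against the median of the markers, Myh7 differed by 1.99 in MI vs. Sham and by 1.81 in DAPA vs. Sham, and Actc1 by 1.12 in the latter. With 1 rat left out, the log2 ratio of Myh7 to Myh6 differed by 3.97 to 4.32 in MI vs. Sham, by -0.66 to 0.12 in DAPA vs. MI and by 3.46 to 4.23 in DAPA vs. Sham.

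For rats that share a replicate number, the correlations of their deviations were -0.01 to 0.07 in MI vs. Sham. They were -0.30 to 0.03 in DAPA vs. MI and -0.003 to 0.19 in DAPA vs. Sham. Their mean in DAPA vs. Sham was 0.10, against -0.05 for rats with different numbers. It was 0.02 against -0.01 in MI vs. Sham and -0.17 against 0.09 in DAPA vs. MI. With so few rats per group, these correlations cannot decide whether the numbers pair the rats. With the replicate block, 2230 genes were higher and 2119 lower in MI vs. Sham, 0 in DAPA vs. MI and 1942 and 1861 in DAPA vs. Sham, and of the 7 genes only Myh6 changed its call, in the last comparison (limma adjusted p = 0.033).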
